A study of Homo sapiens with 6 samples.

Results

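The MYC and MAX network was described in Saos-2, an osteosarcoma line established from human bone tumour, after 24 h with ailanthone (AIL) or with its solvent. AIL is a quassinoid from the tree Ailanthus altissima. The treated group received 0.20 µM AIL, which the labels give as its IC50, and the control group received DMSO alone, with 3 libraries in each group. Saos-2 is known for a defective RB1 gene, which both groups share. The members were chosen by name as MYC, MAX, MXD1, MXD3, MXD4, MXI1, MNT, MLX and MGA. All 9 had a row among the 13439 genes of the table, and all 9 had a mean of at least 1 CPM (reads per unit of library size, TMM-normalized by the authors) over the 6 libraries. Among all genes listed, 11069 reached that minimum and were tested. The labels call the samples biological replicates but do not say whether each came from its own culture. The p-values therefore measure the spread between these 6 libraries.

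MYC is a basic helix-loop-helix leucine zipper factor that binds DNA as a heterodimer with MAX, mostly at the E-box CACGTG, and activates genes of growth, ribosome production and metabolism. MXD1, MXD3, MXD4, MXI1 and MNT also pair with MAX to bind these sites, and they recruit SIN3 and histone deacetylases to repress them. MGA pairs with MAX inside a polycomb complex, and MLX is a MAX-like partner of the nutrient-sensing factors MondoA and ChREBP. MYC is amplified or highly expressed in many osteosarcomas.

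The motif that these factors recognise was looked for in the promoters of the members other than MYC. All of these promoters that held it are shown. They are those of MNT and MLX, which rose under AIL, and of MXD4, whose change did not pass the test described below. Whether the motif has a part in these values was not tested. RefSeq promoter sequences (GRCh38.p14) of 8 members were used, with 13 promoters in all. MYC was left out of this search, so whether its promoters hold the motif was not examined. The 250 bases before each start were searched for CACGTG, which reads the same on both strands, and 1 copy was found for each of MNT, MLX and MXD4. The sequences run 5′ to 3′ on the strand of the gene, up to the base before the start, with the motif in capitals. The MNT window is chr17:2401061-2401310 (- strand), the MLX window chr17:42566850-42567099 (+ strand) and the MXD4 window chr4:2262110-2262359 (- strand).
MNT: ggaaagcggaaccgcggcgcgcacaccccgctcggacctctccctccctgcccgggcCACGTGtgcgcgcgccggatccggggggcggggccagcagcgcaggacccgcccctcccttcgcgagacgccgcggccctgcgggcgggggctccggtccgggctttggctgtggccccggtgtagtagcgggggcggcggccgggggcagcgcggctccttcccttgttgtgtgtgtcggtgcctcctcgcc
MLX: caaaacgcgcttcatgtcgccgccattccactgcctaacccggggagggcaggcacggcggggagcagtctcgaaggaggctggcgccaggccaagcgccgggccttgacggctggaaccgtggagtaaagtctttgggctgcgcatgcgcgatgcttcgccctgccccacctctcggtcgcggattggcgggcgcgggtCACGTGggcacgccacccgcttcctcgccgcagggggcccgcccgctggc
MXD4: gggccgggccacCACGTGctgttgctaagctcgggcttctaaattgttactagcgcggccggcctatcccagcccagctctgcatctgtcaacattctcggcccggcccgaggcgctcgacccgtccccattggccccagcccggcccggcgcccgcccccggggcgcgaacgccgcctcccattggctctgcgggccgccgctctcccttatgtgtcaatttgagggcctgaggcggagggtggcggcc
The first base of the motif lay 193 bases before the start in MNT, 50 in MLX and 238 in MXD4. The other members searched, MAX, MGA, MXD1, MXD3 and MXI1, had no copy in these windows. Windows of the same length held the motif in 2228 of 35116 promoters of the RefSeq table (6.34%) and in 1032 of 12421 promoters of tested genes (8.31%). Counted by gene, 3 of the 8 members and 969 of 8486 tested genes (11.4%) had it in at least 1 promoter. A match describes letters in a window and does not show binding in these cells.

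Under AIL, the MYC transcript fell by 9.51%, MNT and MLX rose, and the other 6 members did not pass the test. Of the 9 members, 2 rose and 1 fell with limma at an adjusted p under 0.05. With the replicate number as a block 2 fell, MXD3 being the other. Among all 11069 genes tested, 54.1% were called, 28.2% higher and 25.9% lower, so the share of members called (33.3%) was not above the background. For 4 members the DMSO and AIL ranges were apart (60.1% of all tested genes), with AIL above for 3 of them (30.9% of all tested genes) and below for 1 (29.2%). The median log2 difference of the members was -0.02, and that of all tested genes was 0.01. Each log2 difference is the AIL mean less the DMSO mean of log2(CPM + 1), where the added 1 makes the change of a low gene look smaller than it is. In these bulk samples, fewer cells of a type and less RNA per cell cannot be told apart.

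MYC, the activating partner, stood at 102.6, 100.95 and 103.9 CPM in the 3 DMSO libraries and at 93.6, 94.4 and 90.1 CPM in the 3 AIL libraries. All AIL values lay below all DMSO values, and the spread within each group was small. The mean went from 102.5 ± 1.46 to 92.7 ± 2.31 CPM (SD, n = 3), a fall of 9.51%. Its log2 difference was -0.14 (SE 0.0300, 95% interval -0.21 to -0.08, limma adjusted p = 0.000648). By size this change was near the middle for these data, since 46.9% of tested genes had a larger one in either direction. Between 3235 and 3722 reads per library lay behind the MYC values. Its transcripts shared none of their 50-base words with other annotated genes.

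MAX, the partner that MYC and its antagonists compete for, stood at 20.3, 20.95 and 19.5 CPM under DMSO and at 20.5, 18.1 and 18.9 CPM under AIL. The groups overlapped, with AIL replicate 1 among the DMSO values. The log2 difference was -0.08 with a 95% interval of -0.19 to 0.03 (limma adjusted p = 0.228). The test therefore allows a fall somewhat larger than that of MYC as well as a slight increase. MGA, the large scaffold that carries both a T-box and a helix-loop-helix domain, had 186.2, 183.8 and 195.2 CPM under DMSO and 183.7, 182.2 and 188.1 CPM under AIL. These ranges overlapped, and with 6062 to 6996 reads per library the interval was narrow (log2 difference -0.03, 95% interval -0.09 to 0.03, limma adjusted p = 0.418).

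**Figure D1:**
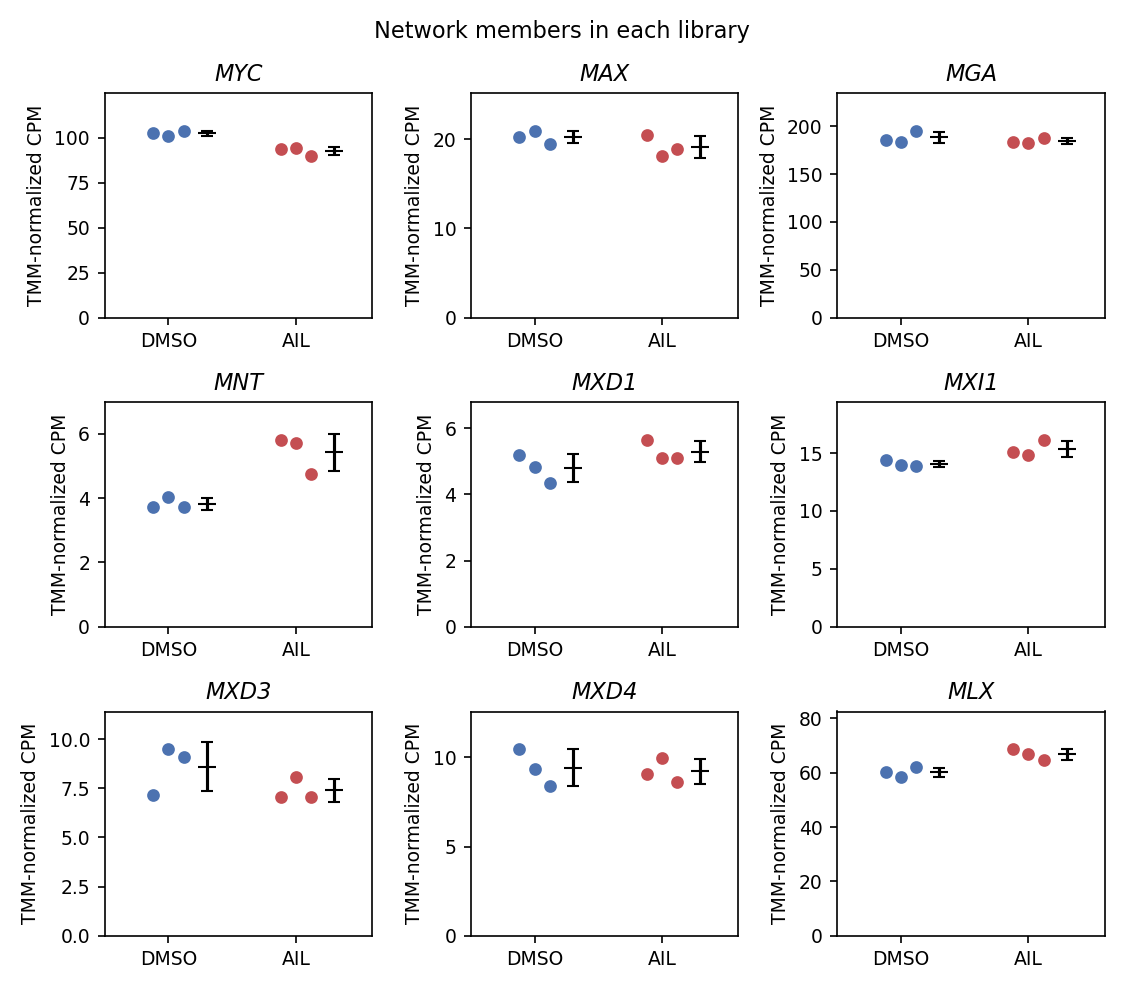
TMM-normalized CPM (vertical axes, starting at 0) of the 9 network members in the DMSO and AIL libraries, 1 panel per gene. Points are libraries in the order of replicates 1 to 3, and black bars are mean ± SD (n = 3). The AIL libraries lie below all DMSO libraries for MYC and above all of them for MNT, MXI1 and MLX.

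MNT, a widely expressed repressor that is thought of as the general antagonist of MYC, had the largest log2 difference among the members. It stood at 3.72, 4.03 and 3.71 CPM under DMSO and at 5.81, 5.70 and 4.76 CPM under AIL. All AIL libraries were above all DMSO libraries, with AIL replicate 3 the nearest to them. The mean went from 3.82 ± 0.182 to 5.42 ± 0.577 CPM (SD, n = 3), 1.42-fold as a ratio of mean CPM. The log2 difference was 0.41 (SE 0.0836, 95% interval 0.23 to 0.59, limma adjusted p = 0.000485), and 6.20% of tested genes had a larger one. MNT is low in these cells, with 121 to 221 reads per library. Of the 50-base words of its transcripts, 19.5% also occur in AC006435.1, an antisense gene, and since the use of strand is not given, reads of that gene and of MNT cannot be told apart there.

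MXD1, MXI1, MXD3 and MXD4 are the MAD proteins, repressors that rise as cells leave the cycle and differentiate, except MXD3, which is known from proliferating cells in S phase. None of the 4 passed the test. MXI1 came close, with 14.4, 14.0 and 13.9 CPM under DMSO and 15.1, 14.9 and 16.2 CPM under AIL. The groups did not overlap for MXI1, and the log2 difference was 0.12 (SE 0.0546, 95% interval 0.00 to 0.23, limma adjusted p = 0.0775). MXD1 had 5.19, 4.84 and 4.35 CPM under DMSO and 5.65, 5.11 and 5.10 CPM under AIL, with overlapping groups. Its log2 difference of 0.12 was as large as that of MXI1 but had a wider interval of -0.05 to 0.29 (limma adjusted p = 0.219). About 156 to 215 reads per library lay behind it.

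MXD3 pointed the other way, with 7.16, 9.50 and 9.10 CPM under DMSO and 7.07, 8.07 and 7.05 CPM under AIL. DMSO replicate 1 lay among the AIL values and the other two DMSO libraries above them. The log2 difference was -0.18 (SE 0.0877, 95% interval -0.37 to 0.00, limma adjusted p = 0.0849). With the replicate number as a block the limma adjusted p was 0.0361, with quantile normalization 0.0348, and without DMSO replicate 1 it was 0.00528 (log2 difference -0.30). Over all alternatives tried it ran up to 0.337, reached without DMSO replicate 2. Of the 50-base words of MXD3, 30.7% occur in other genes, foremost in PRELID1 on the opposite strand, which rose from 257.6 ± 2.21 to 276.97 ± 6.30 CPM (limma adjusted p = 0.00233); its part in the MXD3 values was not tested. MXD4 had 10.5, 9.35 and 8.40 CPM under DMSO and 9.07, 9.98 and 8.60 CPM under AIL. Its groups overlapped almost fully (log2 difference -0.02, 95% interval -0.19 to 0.14, limma adjusted p = 0.808).

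MLX, the partner of MondoA and ChREBP that also pairs with MXD1, MXD4 and MNT, stood at 60.2, 58.5 and 61.9 CPM under DMSO and at 68.8, 67.1 and 64.7 CPM under AIL. All AIL libraries were above all DMSO libraries. The mean went from 60.2 ± 1.69 to 66.8 ± 2.07 CPM (SD, n = 3), 1.11-fold, with a log2 difference of 0.15 (SE 0.0352, 95% interval 0.07 to 0.22, limma adjusted p = 0.00179). It overlaps PSMC3IP on the opposite strand, and 25.5% of the 50-base words of MLX occur in that gene. PSMC3IP, a meiotic recombination factor, went the other way, from 31.0 ± 0.619 to 26.3 ± 0.931 CPM (limma adjusted p = 0.000244). The part of that overlap in the MLX values was not tested.

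**Figure D2:**
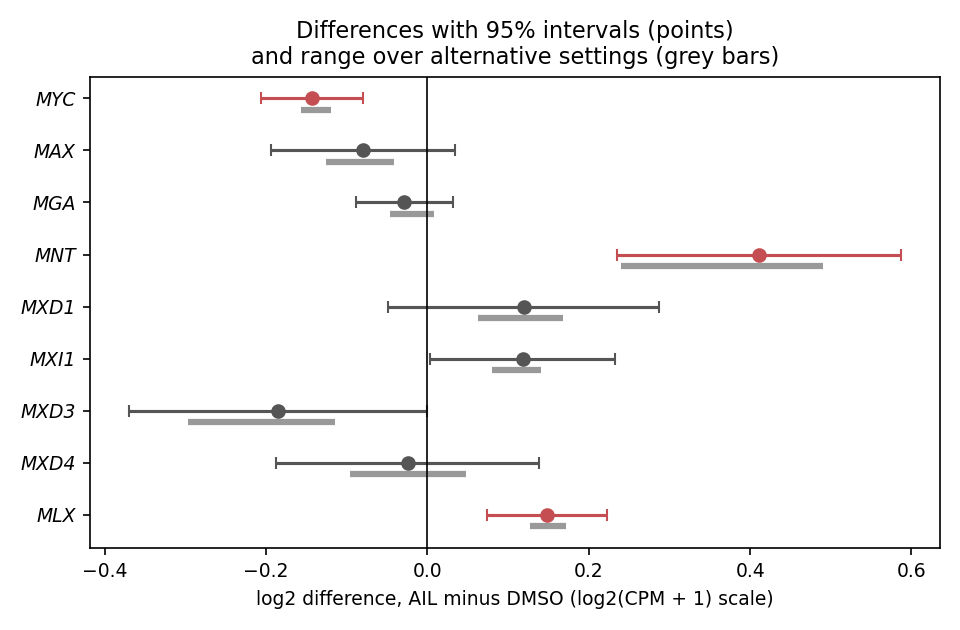
Log2 difference of each network member, AIL less DMSO in log2(CPM + 1), with its 95% interval (points and thin bars, n = 3 libraries a group; red where the limma adjusted p is under 0.05, dark grey otherwise). Grey bars span the values over the alternative settings tried, and those of MYC, MNT and MLX stay on 1 side of 0, as do those of MAX, MXD1, MXI1 and MXD3.

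Levels can be set side by side between genes only per length. Divided by the longest protein-coding transcript in GENCODE 29, the DMSO levels ran in the order MYC (43.3 CPM per kb), MLX (23.3), MGA (13.0), MAX (6.42), MXI1 (4.06), MXD3 (3.78), MXD4 (2.32), MXD1 (0.858) and MNT (0.765 CPM per kb). The ranges over the 3 DMSO libraries overlapped for MXI1 and MXD3 and for MXD1 and MNT, and for no other neighbours in this order. Under AIL, MNT (1.09 ± 0.116 CPM per kb) stood before MXD1 (0.946 ± 0.0563 CPM per kb), and their ranges still overlapped. The places of MLX, MGA and MAX depend on the transcript length that is used. With the median protein-coding transcript, MYC had 75.1, MGA 53.3, MAX 27.1 and MLX 25.3 CPM per kb under DMSO. By either length, the MYC transcript had the highest level per length of the 9 members, and the repressors MXD1, MXD4 and MNT the lowest.

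Ratios of CPM within 1 library do not depend on how libraries are scaled. The ratio of MYC to MNT was 27.6, 25.05 and 28.0 in the DMSO libraries and 16.1, 16.6 and 18.9 in the AIL libraries, a fall of 36.0% in the mean with no overlap. The ratio of MYC to MXI1 went from 7.28 ± 0.185 to 6.04 ± 0.412 (SD, n = 3), also without overlap. That of MYC to MXD3 did not fall, with 12.1 ± 1.95 under DMSO and 12.6 ± 0.790 under AIL, and its groups overlapped. Against the summed CPM of MXD1, MXD3, MXD4, MXI1 and MNT, MYC went from 2.52 ± 0.107 to 2.17 ± 0.0176, and the groups did not overlap. The ratio of MYC to MAX was 5.06 ± 0.253 under DMSO and 4.86 ± 0.331 under AIL, and these groups overlapped. Among the members other than MYC, the ratio of MNT to MAX went from 0.189 ± 0.00480 to 0.284 ± 0.0316 and that of MLX to MAX from 2.98 ± 0.190 to 3.50 ± 0.185, both without overlap. These ratios restate the values above and carry no test of their own. They are not corrected for transcript length, so they compare the groups and not the levels of different genes.

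**Figure D3:**
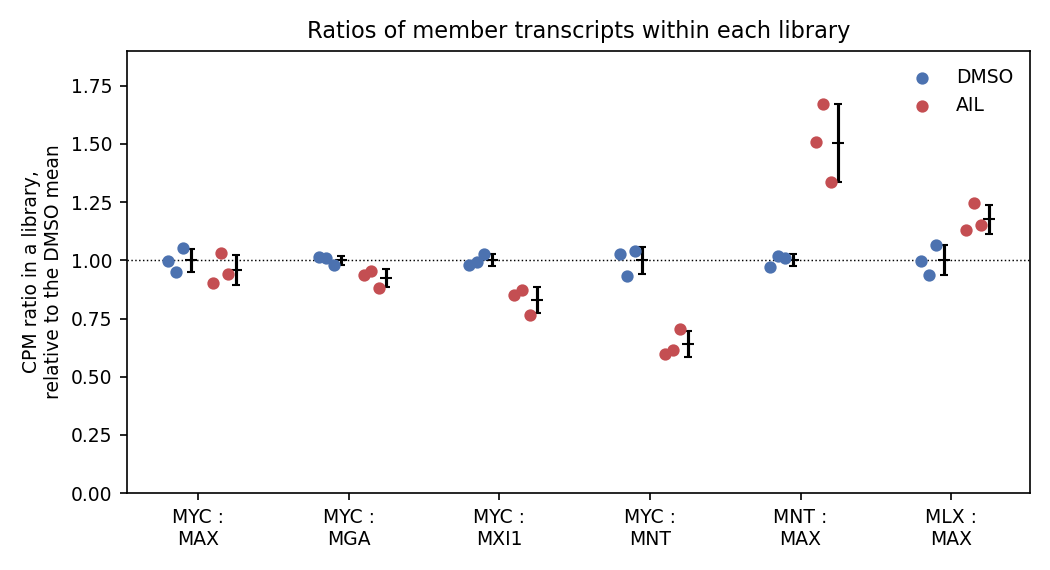
Ratios of the CPM of member transcripts within each library, divided by the DMSO mean of that ratio (vertical axis, starting at 0). Points are libraries and black bars are mean ± SD (n = 3). MYC to MNT lies lower in all AIL libraries and MNT to MAX higher, while the groups overlap for MYC to MAX.

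The genes whose pattern was most like that of a member were taken as the 3 with the smallest Euclidean distance over the 6 libraries, after each gene was centred on its mean log2(CPM + 1), among the 9723 genes whose mean reached 5 CPM. For MYC these were ADAR, SND1 and EID1 (distances 0.0225, 0.0266 and 0.0280), with log2 differences of -0.14, -0.15 and -0.14. For MLX they were RNASEH2B, CHCHD3 and TBCB (distances 0.0305, 0.0376 and 0.0397). For MXI1 they were CRLS1, SAAL1 and LSM5, with log2 differences of 0.13, 0.13 and 0.09. MAX was nearest to COG2, ZNF202 and BLCAP, and MGA to WDR11, GTF3C4 and DCAF13. MNT was below the 5 CPM minimum with its mean of 4.62 CPM and was not matched.

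Of the related factors of the same structural class, 8 of 10 with a row were tested, and 2 rose (25%) and 2 fell (25%), about the 28.2% and 25.9% of all genes. The sterol regulators SREBF1 and SREBF2, which bind E-boxes and sterol elements, fell by 0.25 and 0.23 on the log2 scale. SREBF2 went from 83.9 ± 1.61 to 71.5 ± 2.60 CPM (limma adjusted p = 2.17e-05). USF1, a ubiquitous E-box factor, went from 43.3 ± 0.882 to 46.6 ± 1.26 CPM (limma adjusted p = 0.0276), and the lysosomal regulator TFE3 from 36.2 ± 0.997 to 39.6 ± 1.71 CPM (limma adjusted p = 0.0182). Neither of those increases was stable. USF1 was not called without DMSO replicate 2 or 3 or without AIL replicate 1 (adjusted p = 0.0593, 0.102 and 0.136), nor TFE3 without DMSO replicate 3 or AIL replicate 2 (adjusted p = 0.0774 and 0.0921).

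MLXIP, the gene of MondoA and the main partner of MLX, had 10.5 ± 0.402 CPM under DMSO and 10.1 ± 0.563 CPM under AIL, with overlapping groups (log2 difference -0.06, limma adjusted p = 0.471). USF2, MITF and TFAP4 also did not pass (adjusted p = 0.536, 0.881 and 0.0726), though TFAP4, an E-box factor known as a MYC target, passed without DMSO replicate 1 or AIL replicate 3 (adjusted p = 0.0225 and 0.0315). MYCL, a paralog of MYC, was at 0.11 to 0.18 CPM in the 6 libraries, and TFEB had means of 1.03 and 0.913 CPM, both below the minimum for the test. TXNIP and ARRDC4, arrestin-domain genes known as direct targets of MondoA with MLX, were low as well. TXNIP, which restrains glucose uptake, had 0.22, 0.24 and 0.31 CPM under DMSO and 0.42, 0.94 and 0.97 CPM under AIL, about 7, 8 and 11 reads against 16, 34 and 35. All AIL libraries were above all DMSO libraries, and in the fit without a minimum the limma adjusted p was 0.00329. ARRDC4 had means of 0.237 and 0.263 CPM, with overlapping groups (limma adjusted p = 0.801 in that fit).

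Of the SIN3 and HDAC corepressor that the MXD proteins and MNT recruit, 10 of 19 tested genes fell and 1 rose (median -0.11 on the log2 scale), against 25.9% lower and 28.2% higher among all genes. With the replicate block 2 rose. HDAC1, a catalytic deacetylase of the complex, had the lowest log2 difference of the list and went from 138.6 ± 0.837 to 105.5 ± 3.97 CPM (limma adjusted p = 1.32e-08, log2 difference -0.39). Its close relative HDAC2 did not pass (log2 difference -0.05, limma adjusted p = 0.199) and is named after its value was seen. The histone-binding subunit gene RBBP7 fell by 0.22 and ARID4B by 0.20 on the log2 scale, as did the scaffold gene SIN3A, also named after its value was seen (-0.20). SAP18, which also serves in RNA processing, rose from 94.2 ± 1.30 to 115.8 ± 2.63 CPM.

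In the PRC1.6 polycomb complex that holds MGA with MAX, 5 of 13 genes fell (38.5%, against 25.9% of all genes) and 1 rose (7.69%, against 28.2%), with a median of -0.09 on the log2 scale. The share called in either direction, 46.2%, was below the 54.1% of all genes. TFDP1, the dimer partner of E2F6, went from 149.4 ± 2.64 to 124.6 ± 1.31 CPM, and RYBP and WDR5 fell by 0.17 and 0.13 on the log2 scale. EHMT2, a histone H3 lysine methyltransferase, rose from 32.6 ± 1.21 to 40.5 ± 0.0651 CPM (limma adjusted p = 6.17e-06). MGA itself, described above, did not pass.

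Of 21 genes of MYC cofactors, 9 rose (42.9%, against 28.2% of all genes), WDR5 fell (4.76%, against 25.9%) and 11 were not called, with a median of 0.10 on the log2 scale. The share called, 47.6%, was below that of all genes. The calls were 8 higher and 3 lower with quantile normalization, and 10 and 4 with the replicate block. HCFC1, a chromatin scaffold that MYC binds, had the largest difference, from 32.2 ± 0.553 to 56.4 ± 1.74 CPM (1.75-fold as a ratio of mean CPM, limma adjusted p = 4.31e-11). ZBTB17 encodes MIZ1, through which MYC represses genes, and its transcript went from 20.4 ± 1.14 to 29.9 ± 1.34 CPM (limma adjusted p = 1.57e-07, log2 difference 0.53). The helicase gene RUVBL1 and the acetyltransferase gene KAT5 rose by 0.25 and 0.37 on the log2 scale, although 19.9 and 31.8% of their 50-base words occur in other genes.

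Among genes that set the turnover of the MYC protein, 8 of 25 fell (32%, near the 25.9% of all genes) and 3 rose (12%, against 28.2%), with a median of -0.03 on the log2 scale. AURKA, a mitotic kinase that shields MYC proteins from degradation, went from 167.9 ± 2.65 to 140.6 ± 0.95 CPM, and KIAA1524, now CIP2A, which keeps a phosphatase off MYC, from 135.3 ± 2.77 to 112.6 ± 3.47 CPM. SKP2, a ubiquitin ligase subunit for MYC, fell by 0.21 on the log2 scale. These are transcripts, and MYC protein was not measured here.

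Of 15 genes that act on the MYC gene or its mRNA, 6 rose (40%, against 28.2% of all genes) and 4 fell (26.7%, near the background of 25.9%), with a median of 0.03 on the log2 scale. The calls were 4 higher and 6 lower with quantile normalization, and 2 were higher without the intensity trend. PTBP1, an RNA-binding splicing and translation factor, went from 312.0 ± 3.14 to 417.95 ± 13.0 CPM (limma adjusted p = 1.06e-09), and CNBP rose by 0.16 on the log2 scale. The insulator factor CTCF and the mRNA-stabilising ELAVL1 fell by 0.20 and 0.12. NME2 was lower by the test (log2 difference -0.22, limma adjusted p = 0.0178), but not without DMSO replicate 1 (adjusted p = 0.145), and 39.6% of its 50-base words occur in other genes.

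Genes described as activated by MYC were mostly higher while MYC itself was lower. Of 62 tested, 37 rose (59.7%, against 28.2% of all genes) and 11 fell (17.7%, against 25.9%), and their median was 0.11 on the log2 scale. RRP9 and NOP56, which build small nucleolar ribonucleoproteins, rose by 0.44 and 0.32 on the log2 scale. ODC1, the first enzyme of polyamine synthesis and a classic MYC target, went from 508.5 ± 5.34 to 624.2 ± 12.8 CPM (limma adjusted p = 2.73e-08, log2 difference 0.30). NPM1 rose by 0.33, with 28.1% of its words shared with other genes. TMEM97, a sterol-regulated membrane protein gene, had the lowest log2 difference of the list and went from 81.2 ± 1.98 to 48.7 ± 1.72 CPM (limma adjusted p = 5.36e-11, log2 difference -0.73).

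Of 7 tested genes described as repressed by MYC, 3 rose (42.9%, against 28.2% of all genes) and 1 fell (14.3%, against 25.9%). Their median was -0.02 on the log2 scale, and the 57.1% called was near the 54.1% of all genes. The ferritin heavy chain gene FTH1 went from 283.9 ± 8.17 to 383.9 ± 10.5 CPM, though 48.8% of its 50-base words occur in other genes. NDRG1, a stress and differentiation gene, went from 9.37 ± 1.25 to 11.9 ± 0.740 CPM (limma adjusted p = 0.00272). GADD45A rose by 0.14 on the log2 scale, and was not called without DMSO replicate 3 or AIL replicate 1 (adjusted p = 0.0562 and 0.0783). THBS1, which encodes an inhibitor of vessel growth, fell by 0.30.

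**Figure D4:**
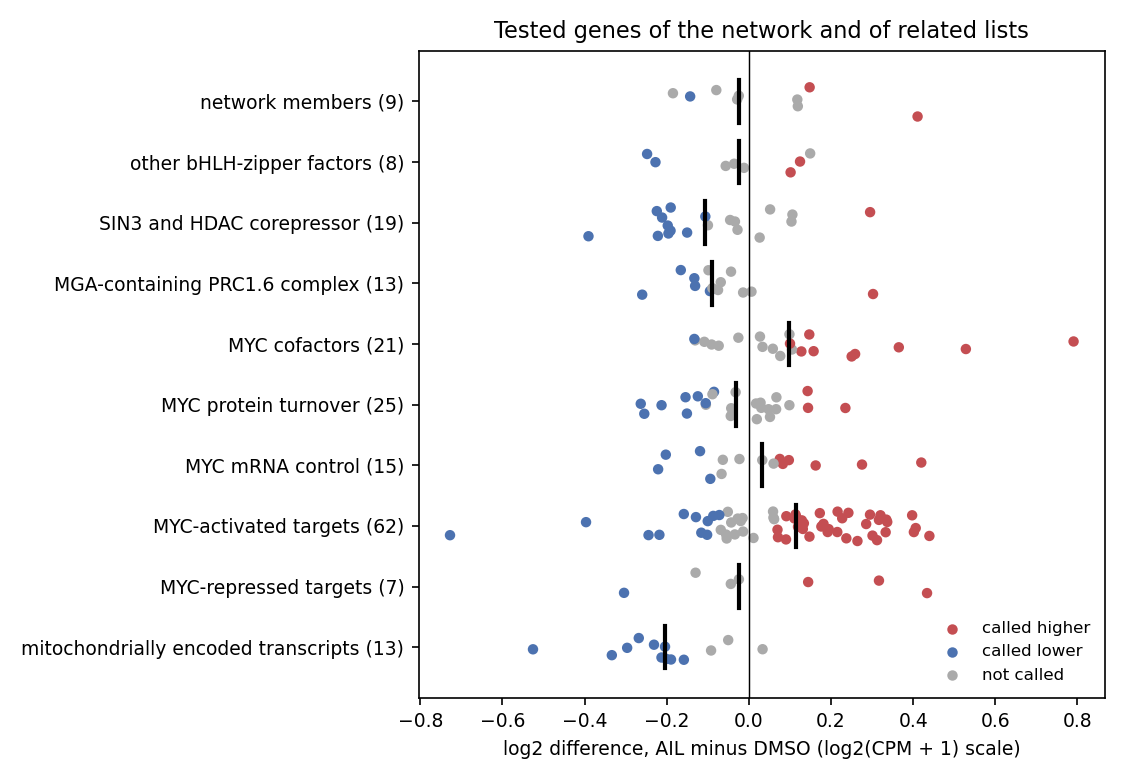
Log2 difference, AIL less DMSO in log2(CPM + 1), of each tested gene of the network and of 9 related lists (number of tested genes in brackets). Points are genes, red where called higher, blue where called lower and grey where not called, and black bars are medians. The MYC-activated targets have 37 of 62 genes called higher, against 28.2% of all tested genes. The SIN3 and HDAC corepressor has 10 of 19 called lower, against 25.9% of all tested genes.

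As a check of the cells, RB1 had 133.9 ± 4.29 CPM under DMSO and 133.1 ± 3.12 CPM under AIL. Of the osteoblast lineage markers, RUNX2 stood at 4.66 CPM under DMSO, while SPP1 and BGLAP were near 0 (0.223 and 0.0100 CPM). The endothelial markers VWF and CDH5 summed to at most 0.24 CPM in any library. Of the 13 mitochondrially encoded transcripts, held as a measure of RNA quality, 10 fell (76.9%, against 25.9% of all genes) and 0 rose (against 28.2%), with a median log2 difference of -0.20 and values from -0.53 for MT-ND6 to 0.03 for MT-CYB, which was not called. Their summed level was 4205 to 4374 CPM in the DMSO libraries and 3600 to 3726 CPM in the AIL libraries, and their part in the results above was not tested. The CPM value of 1 read put the scaled library sizes at 32.6 M to 38.0 M reads, and the first principal component, with 72.4% of the variance, separated the treatments.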

How the data were processed

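RNA was extracted with TRIzol and 1 µg entered an Illumina TruSeq RNA preparation, per the labels' protocols. The authors deposited 1 table of CPM values with TMM scaling, per the file name, to 2 decimals. The submitters' processing notes name RSEM and edgeR 3.8.5 without a role. What aligner, build and annotation served, and whether strand was used, is not given in the sources used here. Low values were multiples of a step worth 1 read in each library, but over all values too few came out whole for the reads to be recovered, so the planned count tests were not run. That step gave the read numbers.

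The test was two-sided, on log2(CPM + 1) with an intensity trend (limma 3.58.1, R 4.3.3), for the 11069 genes whose mean reached 1 CPM, with Benjamini-Hochberg adjustment over all of them. The limma step was tested on simulated data. The alternatives were pseudocounts of 0.1 and 5, no minimum, a minimum of 5 CPM, no trend, median-of-ratios scaling, quantile normalization, a replicate block and leaving out each library. Same-numbered DMSO and AIL libraries had correlations of 0.159, 0.133 and 0.129 in how they deviated from their group means, above 0.1 in each, the only evidence that the numbers pair the samples. The reported fit has no block, and the blocked value is given beside a result where it changes a call or moves a count by over 1.5 times.

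The members and lists were chosen with earlier results of these data known. Named were all members and, from each list with at least 5 tested genes, the 4 with the smallest p and the highest and lowest log2 difference. All genes with a row were named from shorter lists and from the related factors. Some genes that this rule names are not reported here. Words of 50 bases were compared between GENCODE 29 transcripts. Of the list genes, old symbols were matched through RefSeq synonyms.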

Additional observations from a re-analysis of the deposited data

How the results depend on the processing

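Each result was recomputed under 14 alternatives, 8 changes of setting and 6 fits that leave out 1 library. The calls of MYC and MLX held in all 14, with log2 differences of -0.16 to -0.12 and 0.13 to 0.17 and limma adjusted p of at most 0.00920 and 0.0161. That of MNT held in the 13 that tested it (0.24 to 0.49, adjusted p of at most 0.00494), and the minimum of 5 CPM left it untested, so 1 member was called higher there. MXI1 was called without the intensity trend (adjusted p = 0.0394). Members called lower numbered 2 with quantile normalization and 2 with the replicate block, MXD3 being added each time, as it was without DMSO replicate 1. The block changed no other call of a member. Leaving out 1 library gave 1 to 2 members lower and 2 higher.

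With the replicate block, SIN3 and HDAC genes called higher numbered 2 and MYC cofactors called lower 4, and all tested genes had 3347 higher and 3121 lower calls. Quantile normalization gave 2 and 3 for those 2 lists. Without the intensity trend, 2 genes of MYC mRNA control were called higher. The cause was not tested. Leaving out 1 library gave ranges of 0 to 3 for related factors called higher (0 without DMSO replicate 3), 1 to 3 for SIN3 and HDAC genes higher (3 without AIL replicate 3, 2 without DMSO replicate 2) and 1 to 3 for MYC cofactors lower (3 without DMSO replicate 2 or AIL replicate 3, 2 without DMSO replicate 3). It gave 2 to 6 for genes of MYC mRNA control higher (2 without DMSO replicate 2, 3 without AIL replicate 1), and 2709 to 3270 higher and 2527 to 2924 lower calls among all genes. For the MYC-activated targets it gave 32 to 37 higher and 9 to 11 lower.

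Log2 differences that changed sign were those of genes that were not called. With quantile normalization MGA was at 0.0084, RUNX2 at -0.025 and RB1 at 0.016. Without 1 library MXD4 ran from -0.0957 to 0.0485 (above 0 without DMSO replicate 1 or AIL replicate 3), USF2 from -0.0604 to 0.0129, MITF from -0.0312 to 0.00135, MT-CYB from -0.0355 to 0.0860, RUNX2 from -0.0224 to 0.0541 and RB1 from -0.0353 to 0.00765. Among the members, depth limits MNT and MXD1 most, with 121 to 221 and 156 to 215 reads per library. TXNIP had 7 to 35 and ARRDC4 5 to 13.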

Other observations

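The E-box CACGTG, found in the 250 bases before the start of MNT, MLX and MXD4, was counted over the promoters of all tested genes by their call. It was present in 346 of 3413 promoters of genes called higher under AIL (10.1%), in 222 of 3291 of genes called lower (6.75%) and in 464 of 5717 of genes not called (8.12%). These shares are given as values, with no test, and genes with several promoters enter more than once.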
